A study of Mus musculus with 4 samples.

Results

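The cells described here are endothelial cells of the inner ventricular wall, the mural endocardium, that hold many transcripts of the growth factor gene *Nrg1*. They were chosen by their own counts of unique molecular identifiers (UMIs, 1 for each captured transcript), and 676 of 45551 cell barcodes (1.48%) met every limit. A barcode needed 1000 to 7000 genes and at most 10% mitochondrial UMIs, with under 0.5% of its UMIs from the cardiomyocyte genes *Tnnt2*, *Actc1*, *Tnnc1* and *Ttn*. It needed at least 4 UMIs of the endothelial genes *Pecam1*, *Cdh5*, *Emcn* and *Egfl7*, and under 0.1% of UMIs from *Fabp4*, which marks coronary endothelium. The mural genes *Npr3*, *Ednrb* and *Adgrg6* had to reach 2 UMIs together and exceed the valve genes *Prox1*, *Nfatc1* and *Wnt4*. *Top2a* with *Mki67*, which mark cycling cells, could give at most 1 UMI, as could *Dlk1*, and *Nrg1* had to reach 3 UMIs. These 19 genes selected the cells, so they were not tested, and levels of some of them are described below.

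RNA was measured in single cells of C57BL/6 mouse ventricles at E14.5, with and without *Ets1* in the endothelium. The 2 control libraries came from Tie2Cre;*Ets1* fl/+ embryos and the 2 *Ets1* eKO libraries from Tie2Cre;*Ets1* fl/fl embryos. Each library pooled 3 ventricles from embryos whose sex was not determined, and the labels put all 4 in batch 1. Controls therefore also carried Cre and 1 floxed allele, Tie2Cre acts in all cardiac endothelium and not in the endocardium alone, and the pooled embryos were not told apart within a library. The unit of the tests was the library, with n = 2 per group, and cell classes were compared within libraries. The fit with sex as a term, an alternative, is the exception described with the sex-linked UMIs.

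Endocardium lines the heart chambers and faces the myocardium across an extracellular matrix, the cardiac jelly. Neuregulin 1, the product of *Nrg1*, is an EGF-type ligand that endocardium makes and that binds ErbB receptors on cardiomyocytes, where it drives the growth of trabeculae. Ets1 is a transcription factor of the ETS family with known roles in endothelial cells.

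Control replicate 1 held 12641 barcodes with 124140739 UMIs, of which 210 barcodes with 1855166 UMIs were Nrg1-rich mural endocardium. Control replicate 2 held 7949 barcodes with 76931208 UMIs, of which 158 with 1361441 UMIs were members. *Ets1* eKO replicate 1 held 10010 barcodes with 95131419 UMIs, of which 133 with 894245 UMIs were members. *Ets1* eKO replicate 2 held 14951 barcodes with 102872196 UMIs, of which 175 with 914520 UMIs were members. The median member held 7312 and 7756 UMIs for controls against 6357 and 4677 UMIs for *Ets1* eKO, so the cells of *Ets1* eKO replicate 2 were the shallowest, while the UMIs of all members together were fewest in *Ets1* eKO replicate 1. Mitochondrial UMIs made up 3.66% and 4.0% of member UMIs in controls and 3.12% and 3.12% in *Ets1* eKO.

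Of the mural endocardial cells that passed every limit but the last, the members were 28.2% and 29.9% for controls against 25.3% and 18.1% for *Ets1* eKO. The *Dlk1* limit took 908 and 625 cells to 745 and 528 in controls. In *Ets1* eKO it took 791 and 1408 cells to 526 and 968, a larger part of each library. Of the cells before that limit, the members were 23.1% and 25.3% for controls against 16.8% and 12.4% for *Ets1* eKO. The groups did not overlap, but a limit counted in UMIs is met more often by deeper cells, so the shares follow depth as well as *Nrg1*, and they were not tested. The median member held 6 and 6 *Nrg1* UMIs in controls and 5 and 4 in *Ets1* eKO, and the highest held 64. Just inside the limit, with exactly 3 *Nrg1* UMIs, were 39, 27, 28 and 48 cells (control replicates 1 and 2, then *Ets1* eKO replicates 1 and 2), and just outside it, with 2 UMIs, were 71, 39, 50 and 102. The levels of *Fbxl7*, given as CPM (the gene's share of all UMIs in a library's summed cells, on the usual scale of that unit), were 1433, 1251, 1260 and 1399 just inside and 1481, 961, 988 and 1241 just outside. Cells on either side of the limit thus overlapped in *Fbxl7*.

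Some barcode sequences occurred in both libraries of a pair, from 19 to 47 per pair (0.239% to 0.440% of the smaller library). Shared barcodes among the members numbered 0. Among the members, 30 were within the highest doublet scores of their library (7 and 12 in controls, 4 and 7 in *Ets1* eKO), and they were kept. Sex was not recorded, so *Xist*, made by the inactive X chromosome, and the Y-linked genes *Ddx3y*, *Eif2s3y*, *Uty* and *Kdm5d* were counted in each member. In control replicate 1, 0 members held only *Xist* and 189 held only Y-linked UMIs. Control replicate 2 had 61 and 84, *Ets1* eKO replicate 1 had 68 and 37, and *Ets1* eKO replicate 2 had 167 and 0. Control replicate 1 thus read as male, *Ets1* eKO replicate 2 as female, and the other libraries as mixed. Sex and genotype were therefore not balanced, and the fit with sex as a term is given where it ends the call of a gene followed through the alternatives. That fit used only members with UMIs of 1 kind and split libraries by sex into 6 sums, 3 per group. Sums from the same library are not independent, so its p values do not rest on libraries alone.

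The label was checked against markers. *Nrg1* stood at 890 and 995 CPM in members of the controls and at 1198 and 1096 CPM in *Ets1* eKO. Mural cells with 0 to 2 *Nrg1* UMIs (Nrg1-low, 671 cells sampled to the members' depth) had 57.6, 56.2, 65.3 and 89.1 CPM, and coronary endothelium 12.1 to 23.4 CPM. *Npr3*, the natriuretic peptide clearance receptor, had 999 and 837 CPM in controls against 910 and 729 CPM in *Ets1* eKO. *Ednrb*, an endothelin receptor, had 1029 and 985 against 737 and 728 CPM, and the adhesion receptor gene *Adgrg6* 791 and 855 against 724 and 691 CPM. All of these are genes of the rule, and their order was fixed in part by it. Of mural markers outside the rule, *Cdh11*, which encodes a cadherin, had 1613 and 1562 CPM in controls against 1519 and 1349 CPM in *Ets1* eKO, against 43.2 to 90.8 CPM in coronary endothelium. *Plvap*, an endothelial diaphragm protein, had 507, 593, 457 and 478 CPM. The rest of the list outside the rule was *Cgnl1* with 556 to 790 CPM and, named after their values were seen, genes at lower levels. These were *Bmp6* with 107 to 155, *Vwf* with 64.7 to 112, *Tmem100* with 62.3 to 85.0 and *Cytl1* with 32.4 to 51.8 CPM. Some mural markers were thus abundant and others were not. Markers of the other endothelial classes were mixed, since *Nr2f2* and *Dab2* of the coronary list had 265 to 387 and 205 to 277 CPM, above their 58.9 to 96.5 and 35.0 to 64.9 CPM in coronary endothelium, and *Klf2* of the valve list had 253 to 476 CPM. *Kcne3* and *Cxcr4* of the coronary and *Wnt9b* of the valve list had 0 UMIs in all 4 libraries.

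**Figure D1:**
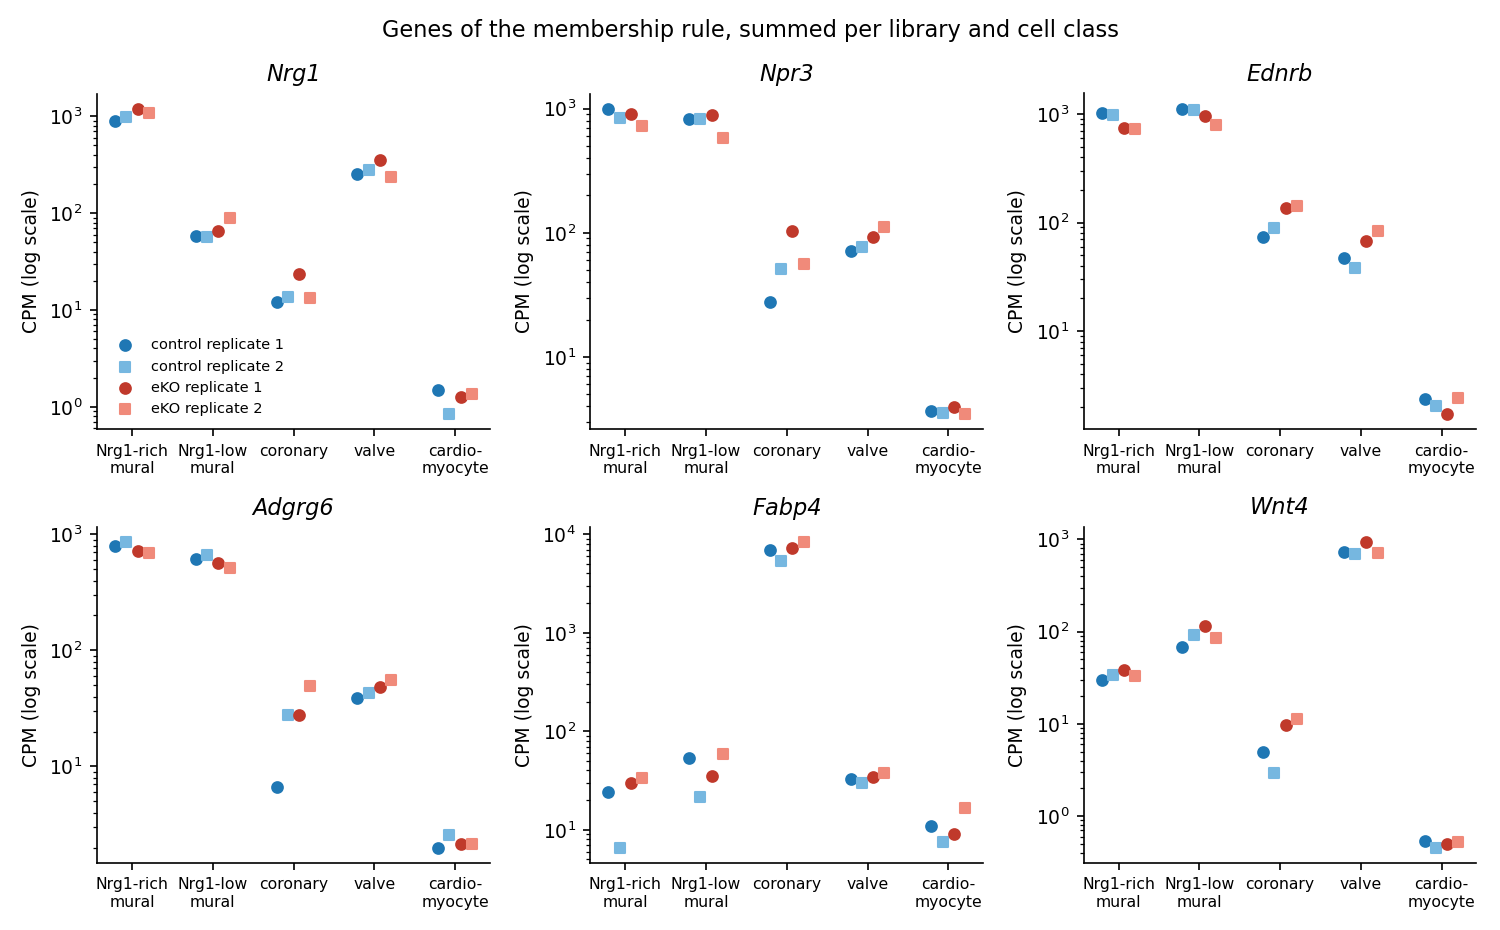
Level of 6 genes of the membership rule (CPM, log scale) in 5 cell classes, with 1 point per library. In Nrg1-rich mural endocardium Nrg1 lies between 890 and 1198 CPM, Npr3, Ednrb and Adgrg6 lie between 691 and 1029 CPM, and Fabp4 is highest in coronary and Wnt4 in valve cells, by the way the classes were chosen.

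Markers of other cell types were counted in the members. Whether their UMIs came from other cells or from the endocardial cells themselves, and their part in the results below, was not tested. The 13 cardiomyocyte markers summed to 1125 and 773 CPM in controls against 1356 and 1706 CPM in *Ets1* eKO, against 56840 to 59840 CPM in cardiomyocytes, with *Tpm1* the most abundant (241, 217, 294 and 339 CPM) and no marker at 0. The 8 fibroblast and mesenchyme markers summed to 803 and 897 against 1274 and 1130 CPM, led by *Col3a1*, beside 511 to 1171 CPM in Nrg1-low cells, 61.9 to 159 CPM in coronary endothelium and 46.6 to 83.4 CPM in cardiomyocytes. Both sums were higher in each *Ets1* eKO library than in either control. The 7 erythroid markers varied most, with 3812 and 75.7 CPM in controls against 3118 and 7309 CPM in *Ets1* eKO, led by *Hbb-bs*, and control replicate 2 stood far below the rest. The 6 immune markers summed to 6.47, 137, 8.95 and 71.1 CPM, with *Tyrobp* first by the mean over libraries but *C1qa* first in control replicate 2 and *Fcer1g* in *Ets1* eKO replicate 2, and with both replicates numbered 2 above both numbered 1. The 6 smooth muscle and pericyte markers summed to 61.2 to 96.2 CPM, led by *Pdgfrb* except in *Ets1* eKO replicate 2, where *Acta2* led, and the 5 epicardial markers to 3.36 to 6.61 CPM, led by *Wt1*, with *Upk3b* and *Upk1b* at 0.

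*Ets1* (ENSMUSG00000032035, chr9:32636221-32757820 on the plus strand of GRCm38) is the gene that Cre was meant to remove. In the members it had 263 and 198 CPM in controls against 119 and 84.2 CPM in *Ets1* eKO. Both controls were above both *Ets1* eKO libraries. The log2 fold change was -1.13 (standard error 0.20, adjusted p = 0.00907 by the quasi-likelihood test of edgeR, with Benjamini-Hochberg adjustment for all genes tested, called edgeR below). Without *Ets1* eKO replicate 2 the change was -0.91 and just missed the threshold of 0.05 (edgeR adjusted p = 0.0505). In Nrg1-low mural cells *Ets1* had 309 and 256 against 102 and 88.0 CPM, and in coronary endothelium 337 and 296 against 174 and 123 CPM. The difference between the changes in Nrg1-rich and Nrg1-low cells was 0.38 on the log2 scale (edgeR adjusted p = 1.00), and that from coronary endothelium was -0.09 (edgeR adjusted p = 0.964). The counts carry no position within the gene, so whether the remaining UMIs include the floxed part was not tested.

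Per cell, *Ets1* was compared after thinning each member to 4000 UMIs, which left out 15 and 15 shallower cells in controls and 20 and 60 in *Ets1* eKO. An *Ets1* UMI was found in 56.9% (95% exact binomial interval 49.7 to 64.0) and 51.0% (42.6 to 59.5) of members in controls. In *Ets1* eKO it was found in 35.4% (26.6 to 45.0) and 26.1% (18.3 to 35.1). The mean was 54.0% ± 4.15 (SD, n = 2) in controls and 30.7% ± 6.58 (SD, n = 2) in *Ets1* eKO, a difference of -23.2 percentage points, and the exact permutation p = 0.333 (two-sided) is the smallest that 2 against 2 libraries can give. Cardiomyocytes, which should lack *Ets1* and had a median of 8348 to 13590 UMIs, showed an *Ets1* UMI in 2.45% to 4.11% of cells at the same depth. The shares in the members of all 4 libraries were above that level. Cardiomyocyte barcodes, here and elsewhere, had at least 2% of UMIs from the cardiomyocyte genes of the rule and no UMI of its endothelial genes. For these shares 500 per library were sampled before thinning. That choice leaves out barcodes with stray endothelial RNA, so the level may be too low as a background. With all UMIs counted, the shares were 79.0%, 67.7%, 41.4% and 32.6%.

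**Figure D2:**
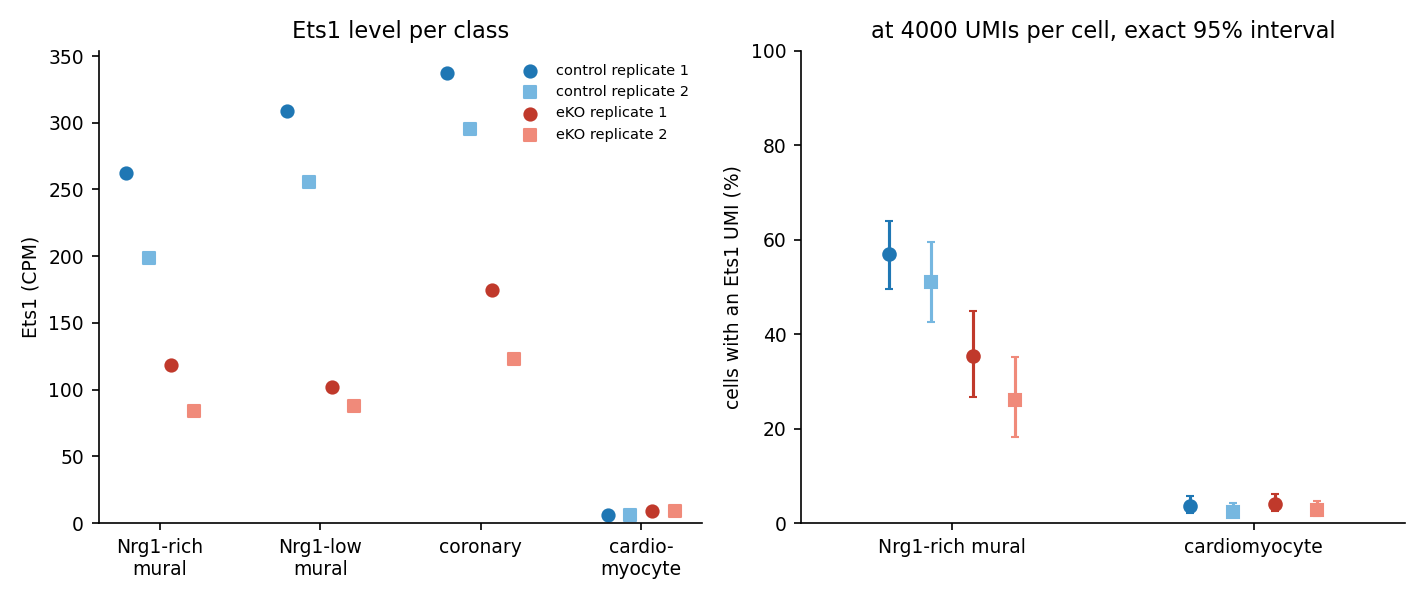
Left, Ets1 level (CPM) per library in 4 cell classes. Right, share of cells with an Ets1 UMI at 4000 UMIs per cell, with exact 95% binomial intervals that cover counting error only. In Nrg1-rich mural endocardium both controls (263 and 198 CPM) lie above both eKO libraries (119 and 84.2 CPM), and cardiomyocytes stay under 10 CPM. The cardiomyocytes were chosen to hold no UMI of the endothelial genes of the rule.

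To ask what *Ets1* eKO changed in these cells, counts were summed over the members of each library and 9474 genes were tested. The sums rise and fall with RNA per cell as well as with regulation, and each level is a share of the library's UMIs. Of these genes, 93 (0.982%) passed an adjusted p of 0.05 by edgeR, 53 higher (0.559%) and 40 lower (0.422%) in *Ets1* eKO. With total count scaling the split was 59 higher and 76 lower. The median log2 change of all genes was 0.01, or -0.05 under that scaling. Groups of libraries did not overlap in 4238 genes (44.7%). Leaving out *Ets1* eKO replicate 1 raised the number of called genes to 179, whereas DESeq2 called 41. Of the 93 genes, 56 to 64 remained called with a library left out, 59 with sex as a term and 40 by DESeq2, so many of the calls differed between these fits. The direction of the 93 was the same in each alternative in which they were tested.

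**Figure D3:**
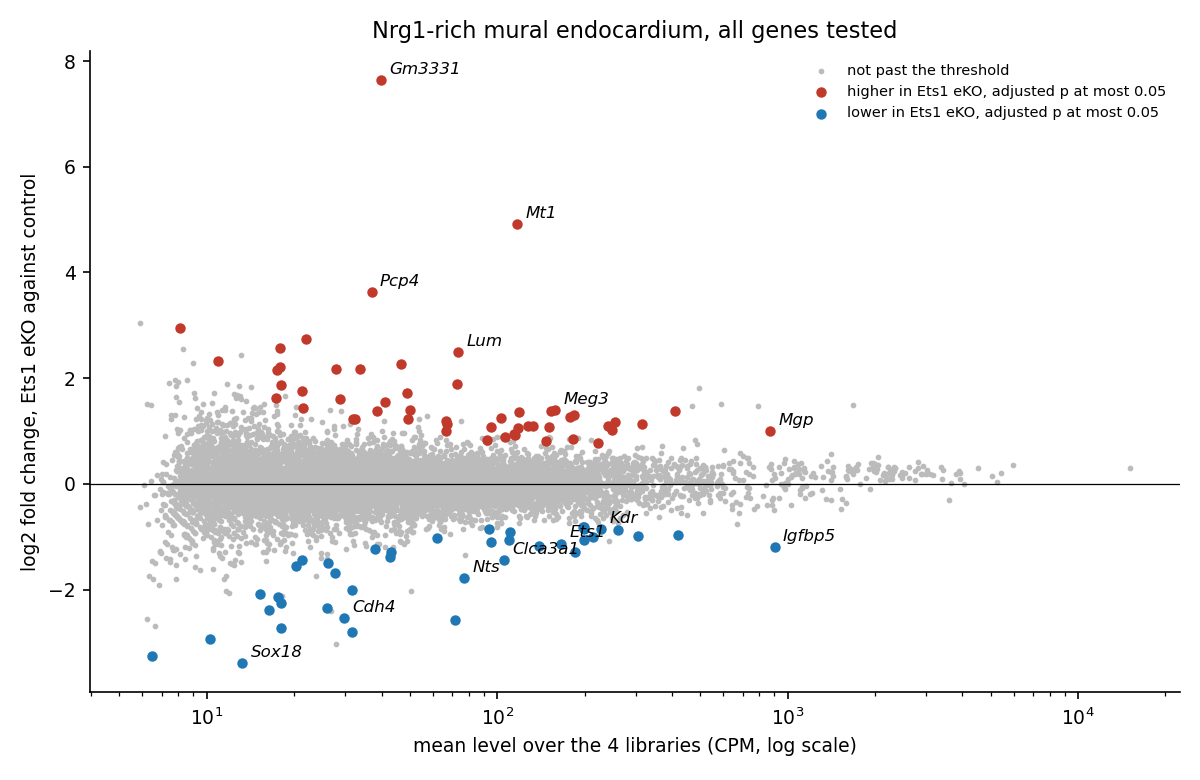
Log2 fold change of Ets1 eKO against control in Nrg1-rich mural endocardium, plotted against the mean level over the 4 libraries (CPM, log scale), with 1 point per gene. Of 9474 genes tested, 53 were higher and 40 lower at an edgeR adjusted p of at most 0.05, and Gm3331, Mt1 and Pcp4 had the largest positive log2 changes.

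The largest change among named protein-coding genes was in *Mt1*, which encodes metallothionein 1, a small protein that binds zinc and copper. It had 8.63 and 6.61 CPM in controls against 245 and 209 CPM in *Ets1* eKO. Both *Ets1* eKO libraries were far above both controls, with a log2 change of 4.91 (standard error 0.25, edgeR adjusted p = 4.05e-09). Nrg1-low cells had 7.57 and 5.92 against 291 and 225 CPM, and coronary endothelium 5.36 and 5.89 against 287 and 189 CPM. Cardiomyocytes of the same libraries had 215 and 228 CPM in controls against 362 and 193 CPM in *Ets1* eKO, and there the groups overlapped (log2 change 0.43, edgeR adjusted p = 0.489). The 3 endothelial classes were thus low in controls, while cardiomyocytes were not. The difference of the *Mt1* change from that in coronary endothelium was -0.55 (edgeR adjusted p = 0.870).

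*Gm3331*, a long intergenic noncoding RNA named here after its values were seen, lies at chr9:32813734-32834104 on the plus strand (GRCm38), 55913 bases after the end of *Ets1*. It had 0 and 0.735 CPM in controls against 76 and 82.0 CPM in *Ets1* eKO. This was 1 UMI of 3216607 in the controls and 143 of 1808765 in *Ets1* eKO, a ratio of 254 (95% counting interval 44.9 to 10110). Nrg1-low cells had 1.16 and 2.22 against 69.7 and 55.4 CPM, and coronary endothelium 0 and 0 against 63.6 and 48.2 CPM. Cardiomyocytes had 0, 0, 0.179 and 0.161 CPM, so the high values were those of the 3 endothelial classes in *Ets1* eKO. Of 30 genes tested within 5 Mb on either side of *Ets1*, 2 were called, *Ets1* and *Gm3331*. On the whole of chromosome 9, 6 of 549 tested genes were called, beside 0.982% of all genes. Whether *Gm3331* UMIs come from transcripts that start at *Ets1* was not tested.

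Other genes rose in *Ets1* eKO from low levels. *Pcp4*, which encodes a calmodulin-binding peptide, had 4.31 and 7.35 CPM in controls against 83.9 and 52.5 CPM in *Ets1* eKO (log2 change 3.63, edgeR adjusted p = 2.32e-05). *Cyp17a1*, a steroid hydroxylase, had 6.47 and 5.14 against 31.3 and 44.8 CPM (2.73, edgeR adjusted p = 0.00113). *Gas6*, a ligand of the TAM receptors, had 16.2 and 16.9 against 60.4 and 92.9 CPM (2.27, edgeR adjusted p = 5.62e-04). Levels of these genes did not overlap between the groups. Genes named by the size of their *Ets1* eKO change, *Mt1* among them, had to meet this to be named. *Ptgis*, the prostacyclin synthase, had 8.09 and 13.2 against 39.1 and 51.4 CPM (2.18, edgeR adjusted p = 0.00308), and *Kcnb2*, a potassium channel subunit, 26.4 and 19.8 against 90.6 and 59.0 CPM (1.73, edgeR adjusted p = 0.00406). The call of *Pcp4* was lost with sex as a term (log2 change 2.92, edgeR adjusted p = 0.0579). *Sparcl1*, a matricellular protein, had 9.16 and 11.0 against 35.8 and 29.5 CPM, and it was called in 10 of 13 alternatives. The call was lost without *Ets1* eKO replicate 1 (log2 change 1.62, edgeR adjusted p = 0.0529), with at least 5 *Nrg1* UMIs (edgeR adjusted p = 0.0682) and by DESeq2 (adjusted p = 0.161).

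*Isg15*, a ubiquitin-like modifier, had 10.8 and 14.7 CPM in controls against 45.8 and 63.4 CPM in *Ets1* eKO (log2 change 2.18, edgeR adjusted p = 0.00113). *Ifitm3*, a membrane protein that restricts virus entry, had 178 and 142 against 380 and 315 CPM (1.17, edgeR adjusted p = 0.00422). In both genes the groups were apart.

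Among lower genes, *Cdh4*, which encodes R-cadherin, had 48.0 and 54.4 CPM in controls against 3.36 and 13.1 CPM in *Ets1* eKO (log2 change -2.55, standard error 0.38, edgeR adjusted p = 0.00308). *Grik2*, a kainate receptor subunit, had 53.4 and 33.8 against 11.2 and 5.47 CPM (-2.34, edgeR adjusted p = 0.00503). *Inpp5d*, the phosphatase SHIP1, had 49.6 and 52.9 against 15.7 and 8.75 CPM (-2.00, edgeR adjusted p = 0.00418). In *Cdh4*, *Grik2* and *Inpp5d* both controls were above both *Ets1* eKO libraries, which naming by size required. The *Ets1* eKO values of *Cdh4* rest on 3 and 12 UMIs, and its change ranged from -3.84 to -1.88 over the alternatives. *Clca3a1*, a secreted regulator of chloride channels, had 168 and 145 against 45.8 and 64.5 CPM (-1.45, edgeR adjusted p = 0.00230). *Nts*, the precursor of neurotensin, had 140 and 101 against 20.1 and 47.0 CPM (-1.78, edgeR adjusted p = 0.00452). The most abundant gene called lower, *Igfbp5*, a binding protein of insulin-like growth factors named after its values were seen, had 1247 and 1299 against 437 and 628 CPM (-1.20, edgeR adjusted p = 0.00766). Here too the groups were apart. *Grik2* missed the threshold with sex as a term (log2 change -1.97, edgeR adjusted p = 0.0597) and *Nts* with at least 5 *Nrg1* UMIs (-1.24, edgeR adjusted p = 0.0742).

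The calls of *Slc26a10*, *Gimap4* and *Pde8a* were lost in several alternatives. *Slc26a10* had 43.7 and 41.9 against 7.83 and 17.5 CPM (log2 change -1.69), *Gimap4*, a GTPase, 41.0 and 37.5 against 14.5 and 12.0 CPM (-1.50), and *Pde8a*, a cAMP phosphodiesterase, 30.2 and 30.9 against 10.1 and 9.84 CPM (-1.55). Their edgeR adjusted p values were 0.0194, 0.0224 and 0.0370. Of 13 alternatives *Slc26a10* was called in 10, *Gimap4* in 8 and *Pde8a* in 6. DESeq2 called none of them (adjusted p = 0.189, 0.383 and 0.552), nor did edgeR with the rule on thinned cells (0.0843, 0.0756 and 0.186). *Slc26a10* was also lost without *Ets1* eKO replicate 1 (edgeR adjusted p = 0.0849). *Gimap4* was lost without control replicate 1 (edgeR adjusted p = 0.0678), without *Ets1* eKO replicate 2 (0.0853) or with at least 5 *Nrg1* UMIs (0.0682). *Pde8a* was lost with sex as a term (edgeR adjusted p = 0.0732) or with any of the 4 libraries left out (0.0684 to 0.107). The direction was the same in each.

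**Figure D4:**
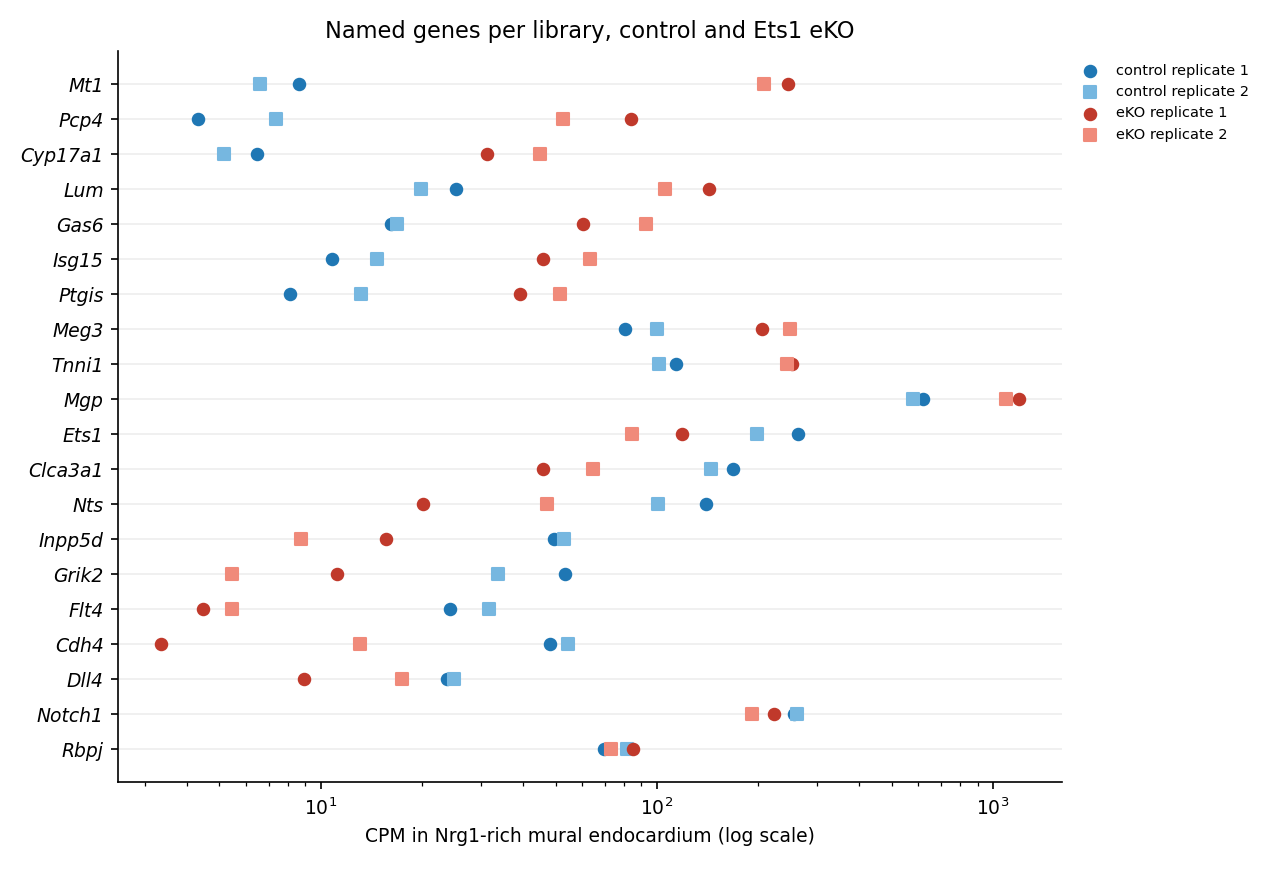
Level of 20 named genes in Nrg1-rich mural endocardium (CPM, log scale), with 1 point per library. From Mt1 down to Mgp both eKO libraries lie above both controls, from Ets1 down to Cdh4 both lie below, and Dll4, Notch1 and Rbpj did not pass the threshold, with overlapping groups in Rbpj. Those of the genes that were named by size of change had to have separate groups.

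Promoter sequences are shown for *Mt1*, *Grik2* and *Slit2*, which changed in the members, so that the letters before their starts can be read beside the values. They are 300 bases each from RefSeq (GRCm38.p6), from 250 bases before the start to 50 after it. Capitals in *Mt1* mark the core of metal response elements, TGCACNC or TGCGCNC, and in *Grik2* the ETS core CGGAAG, searched on both strands. The metal response core was found in 25.7% of 32851 promoters and the ETS core in 16.9%. Of the called genes that matched a promoter, 37 promoters of lower genes held the ETS core in 4 (*Ccser1*, *Grik2*, *Gse1* and *Il2rg*), and 42 promoters of higher genes in 4 (*Frem1*, *Ifih1*, *Rtn1* and *Slc50a1*). The metal response core was in 10 of the 37 and 19 of the 42. *Mt1* lies at chr8:94178839-94179138 on the plus strand with 3 matches, *Grik2* at chr10:49788705-49789004 on the minus strand with 1 ETS core, and *Slit2* at chr5:47982905-47983204 on the plus strand with 0. A match is a run of letters and not a bound site, and its absence concerns this window alone.
Mt1: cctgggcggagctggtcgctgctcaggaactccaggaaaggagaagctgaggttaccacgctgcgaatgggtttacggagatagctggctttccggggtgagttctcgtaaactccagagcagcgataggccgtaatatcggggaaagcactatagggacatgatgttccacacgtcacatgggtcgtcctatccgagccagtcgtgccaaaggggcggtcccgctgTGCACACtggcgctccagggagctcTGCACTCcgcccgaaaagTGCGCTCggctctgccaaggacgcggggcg
Grik2: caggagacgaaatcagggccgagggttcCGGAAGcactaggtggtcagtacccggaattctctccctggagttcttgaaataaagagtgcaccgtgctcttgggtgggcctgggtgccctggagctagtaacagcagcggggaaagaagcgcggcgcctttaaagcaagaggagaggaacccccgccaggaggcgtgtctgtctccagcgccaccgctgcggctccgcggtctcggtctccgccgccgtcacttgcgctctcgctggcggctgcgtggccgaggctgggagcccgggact
Slit2: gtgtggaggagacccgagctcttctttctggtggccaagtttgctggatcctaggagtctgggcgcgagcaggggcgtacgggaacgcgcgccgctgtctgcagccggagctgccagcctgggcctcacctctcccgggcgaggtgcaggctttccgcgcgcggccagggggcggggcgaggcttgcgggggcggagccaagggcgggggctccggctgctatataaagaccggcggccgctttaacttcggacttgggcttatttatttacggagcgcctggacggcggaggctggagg

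Of the tested genes of the Notch pathway, which endocardium uses to signal to myocardium, 0 were called. The listed ligand gene *Dlk1* was limited by the rule and not tested, with 25.3, 16.2, 23.5 and 48.1 CPM in members. Here and in the lists below, counts are to be read beside the 0.982% of all genes that were called, and lists this short can hold few calls at that share. The lists held 3 tested ligands (median log2 change 0.41), 4 receptors (-0.11), 13 processing and nuclear partners (-0.29) and 4 target genes (-0.43), beside 0.01 over all genes. *Dll4*, a Notch ligand of endothelium, had 23.7 and 25.0 CPM in controls against 8.95 and 17.5 CPM in *Ets1* eKO. Both controls were above both *Ets1* eKO libraries, but the log2 change of -0.81 (standard error 0.37) did not pass (edgeR adjusted p = 0.368). The receptor *Notch1* had 256 and 261 against 224 and 191 CPM (-0.26, edgeR adjusted p = 0.560), and *Rbpj*, the nuclear partner of Notch, had 69.5 and 81.5 against 85.0 and 73.3 CPM (0.13, edgeR adjusted p = 0.827). The groups overlapped in *Rbpj*. Target genes *Hes1* (183, 133, 125 and 91.8 CPM), *Efnb2* (182, 166, 145 and 142 CPM) and *Hey1* (16.2, 17.6, 5.59 and 12.0 CPM) had log2 changes of -0.49, -0.22 and -0.86, and they did not pass.

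Among other neuregulin and EGF-type ligands, 0 of 4 tested genes were called. *Hbegf* had 41.0, 8.81, 24.6 and 9.84 CPM, *Nrg4* 14.6, 12.5, 11.2 and 6.56 CPM, and *Nrg3* 7.55, 9.55, 10.1 and 9.84 CPM. None of these passed the test. The receptor *Erbb4* had 40.4, 27.2, 125 and 36.1 CPM, with *Ets1* eKO replicate 1 high and the groups overlapping, and *Erbb2* had 18.3, 17.6, 19 and 9.84 CPM. The 7 proteases that process neuregulins had a median log2 change of -0.05 and 0 calls, and the most abundant was *Bace2* (375, 337, 327 and 250 CPM).

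Of the 20 tested genes of basement membrane and matrix, 1 was called, beside 0.982% of all genes. *Mgp*, the matrix Gla protein, had 618 and 577 CPM in controls against 1197 and 1096 CPM in *Ets1* eKO, with the groups apart (log2 change 1.00, standard error 0.19, edgeR adjusted p = 0.0126). It missed the threshold without control replicate 1 (1.04, edgeR adjusted p = 0.0819) or control replicate 2 (0.96, edgeR adjusted p = 0.124). *Hmcn1*, the large matrix protein hemicentin 1, had 1989 and 1630 against 1590 and 911 CPM (-0.48, edgeR adjusted p = 0.385), and single libraries moved it. It passed without *Ets1* eKO replicate 1 (-0.92, edgeR adjusted p = 0.00326), while it was -0.14 without *Ets1* eKO replicate 2 (edgeR adjusted p = 0.779) and -0.28 with sex as a term (edgeR adjusted p = 0.525). *Col18a1*, which encodes a collagen of basement membranes, had 638 and 613 against 640 and 511 CPM (-0.06, edgeR adjusted p = 0.924). Of 11 genes of cardiac jelly synthesis and turnover 0 were called. The proteoglycan *Vcan* came nearest, with 185 and 123 against 290 and 244 CPM (0.84, edgeR adjusted p = 0.0501), and *Cemip2*, which cuts hyaluronan, had 854, 967, 703 and 611 CPM.

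*Slit2*, a secreted guidance ligand of Robo receptors, was the only called gene of 13 tested Slit, Robo, semaphorin and plexin genes, beside 0.422% of all genes called lower. It had 343 and 339 CPM in controls against 212 and 145 CPM in *Ets1* eKO, and both controls were higher. The log2 change was -0.87 (standard error 0.19, edgeR adjusted p = 0.0370). Without control replicate 1, control replicate 2 or *Ets1* eKO replicate 2 the call was lost (edgeR adjusted p = 0.0671, 0.0624 and 0.179), with changes of -0.87, -0.87 and -0.63. It was also lost with doublet scores used (edgeR adjusted p = 0.0623), with the rule on thinned cells (edgeR adjusted p = 0.0904) and by DESeq2 (adjusted p = 0.0690), so it was called in 7 of 13 alternatives. The list's median was -0.29. In Nrg1-low cells *Slit2* had 318 and 453 against 222 and 217 CPM, and the difference between the changes in the 2 classes was -0.16 on the log2 scale, which did not pass (edgeR adjusted p = 1.00).

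Of 20 tested pan-endothelial genes 2 were called lower, beside 0.422% of all genes. These were *Kdr* and *Flt4*, which encode receptors for VEGF, and they were also the only calls among 12 tested genes of VEGF, angiopoietin and apelin signalling (median -0.09). *Kdr*, also known as VEGFR2, had 272 and 325 against 142 and 175 CPM (log2 change -0.85, edgeR adjusted p = 0.0341). *Flt4*, or VEGFR3, had 24.3 and 31.6 against 4.47 and 5.47 CPM (-2.39, edgeR adjusted p = 0.00988). Controls were higher in both genes. A further VEGF receptor gene, *Flt1*, had 535 and 580 against 495 and 438 CPM (-0.20, edgeR adjusted p = 0.695), and the angiopoietin receptor gene *Tek* 571 and 550 against 871 and 750 CPM (0.59, edgeR adjusted p = 0.168), and they did not pass. The 20 genes had a median of -0.12. DESeq2 called 0 of the 20 lower, with adjusted p = 0.0864 for *Kdr* and 0.122 for *Flt4*. The *Ets1* eKO values of *Flt4* rest on 4 and 5 UMIs, and it also missed with at least 5 *Nrg1* UMIs (-1.90, edgeR adjusted p = 0.0682). *Kdr* lost its call without control replicate 2 (-0.71, edgeR adjusted p = 0.229), without *Ets1* eKO replicate 1 (-0.70, edgeR adjusted p = 0.0849) and with the rule on thinned cells (edgeR adjusted p = 0.0563). Of 15 endocardial transcription factors, *Sox18* was called, with 36.1 and 12.5 against 2.24 and 2.19 CPM (-3.40, standard error 0.67, edgeR adjusted p = 0.0194). The *Ets1* eKO value of *Sox18* rests on 2 UMIs in each library, and it was called in 8 of 12 alternatives. The call was lost without control replicate 1 (-2.38, edgeR adjusted p = 0.592), without *Ets1* eKO replicate 2 (-3.40, edgeR adjusted p = 0.0620), with sex as a term (-2.66, edgeR adjusted p = 0.149) and by DESeq2 (adjusted p = 0.0891). Of 19 tested genes of BMP and TGF-beta signalling, *Smad6*, an inhibitor of BMP signals, was called lower with 143 and 156 against 86.1 and 52.5 CPM (-1.05, edgeR adjusted p = 0.0228). It was not without *Ets1* eKO replicate 2 (-0.75, edgeR adjusted p = 0.117), with sex as a term (-0.90, edgeR adjusted p = 0.0744) or by DESeq2 (adjusted p = 0.113).

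Of 15 tested ETS factors, *Ets1* alone was called, and 13 had a negative change (median -0.20). Of 12 flow-responsive genes 0 were called (median -0.34), and the most abundant was *Klf2* (476, 312, 253 and 261 CPM). The 7 mural and 4 coronary endothelial genes tested had medians of -0.10 and 0.23 and 0 calls. *Gja4*, a connexin of arterial endothelium, came near with 65.2 and 85.9 against 112 and 154 CPM (log2 change 0.89, edgeR adjusted p = 0.0565).

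Growth factors that endocardium can send to the myocardium gave 0 calls among 9 tested genes (median -0.0025). *Igf2* had 2005, 1622, 1865 and 1619 CPM, *Mdk*, the gene of midkine, 478, 486, 653 and 791 CPM, and *Ptn*, the gene of pleiotrophin, 305, 410, 684 and 528 CPM. The groups were apart in *Mdk* (log2 change 0.64, edgeR adjusted p = 0.14) and *Ptn* (0.82, edgeR adjusted p = 0.0706). *Ptn* was called higher in Nrg1-low cells (1.64, edgeR adjusted p = 6.88e-05) but not in coronary endothelium. *Mdk* was called higher in coronary endothelium (1.36, edgeR adjusted p = 0.0103) but not in Nrg1-low cells. Of 6 genes of endothelin and natriuretic signalling, *Nppa* was called, with 34 and 29.4 against 45.8 and 182 CPM (log2 change 1.90, edgeR adjusted p = 0.0297). *Ets1* eKO replicate 2 was the highest library, and without it the change was 0.57 (edgeR adjusted p = 0.495). *Nppa* was called in 8 of 13 alternatives, and also missed with sex as a term (0.93, edgeR adjusted p = 0.375), with no limit on *Dlk1* (edgeR adjusted p = 0.141), with the rule on thinned cells (edgeR adjusted p = 0.0677) and by DESeq2 (adjusted p = 0.968). *Nppa* is also a cardiomyocyte gene, and the cardiomyocyte markers were highest in the same library. Of 15 imprinted growth genes, the noncoding RNA *Meg3* was called, with 80.3 and 99.9 against 206 and 248 CPM and the groups apart (1.40, edgeR adjusted p = 0.00113).

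Markers of other cells moved in part. Of 9 tested cardiomyocyte markers outside the rule, *Tnni1* and *Nppa* were called higher, beside 0.559% of all genes, and the median was 0.75. *Tnni1*, slow skeletal troponin I, had 114 and 101 CPM in controls against 253 and 244 CPM in *Ets1* eKO (log2 change 1.26, edgeR adjusted p = 0.00113), against 2755 to 3576 CPM in cardiomyocytes, where its change was 0.22 (edgeR adjusted p = 0.627). Of 7 tested fibroblast and mesenchyme markers, *Lum* and *Col1a2* were called higher, beside 0.559% of all genes, and the median was 0.43, with 71.4% of the 7 positive. *Col1a1*, the other chain of type I collagen, named after its values were seen, had 38.3 and 80.8 against 38.0 and 26.2 CPM (-0.80, edgeR adjusted p = 0.332). *Lum*, a proteoglycan gene, had 25.3 and 19.8 against 143 and 106 CPM (2.50, edgeR adjusted p = 2.32e-05), and *Col1a2*, a chain of type I collagen, had 66.3 and 109 against 178 and 177 CPM (1.1, edgeR adjusted p = 0.0189). *Col1a2* missed the threshold without control replicate 1 (0.76, edgeR adjusted p = 0.237) and with sex as a term (0.86, edgeR adjusted p = 0.0790). In Nrg1-low cells *Lum* had 22.7 and 8.14 against 78.4 and 101 CPM (2.54, edgeR adjusted p = 8.97e-08) and *Col1a2* 52.4 and 34.8 against 187 and 227 CPM (2.29, edgeR adjusted p = 7.00e-10), so both were called there too. In coronary endothelium *Lum* had 3.57 to 9.08 CPM. The part of RNA from cardiomyocytes or fibroblasts in these changes was not tested.

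Immediate early and heat shock genes, which respond within minutes to stress such as tissue dissociation, were lower in part. Of 19 tested, 5 were called lower (*Fosb*, *Jun*, *Egr1*, *Btg2* and *Hspa1b*) and 0 higher, beside 0.422% of all genes lower, with a median log2 change of -0.86 beside 0.01 over all genes. Under total count scaling 7 were called lower, and by DESeq2 3. *Hspa1b*, an inducible chaperone, had 80.3 and 30.9 against 11.2 and 4.37 CPM (-2.81, edgeR adjusted p = 0.00844), and *Jun*, part of the AP-1 factor, had 468 and 354 against 193 and 207 CPM (-0.98, edgeR adjusted p = 0.0187). *Btg2* had 243 and 147 against 87.2 and 79.8 CPM (-1.17, edgeR adjusted p = 0.0166), and *Egr1* 289 and 230 against 152 and 124 CPM (-0.86, edgeR adjusted p = 0.0297). Control replicate 1 was the highest library in these 4 genes. Without it 2 of the list were called, *Jun* having -0.77 (edgeR adjusted p = 0.157), *Btg2* -0.76 (edgeR adjusted p = 0.195) and *Egr1* -0.69 (edgeR adjusted p = 0.292), and without control replicate 2 the list had 10. Without *Ets1* eKO replicate 2 there were 3, *Hspa1b* having -2.30 (edgeR adjusted p = 0.0509) and *Egr1* -0.72 (edgeR adjusted p = 0.137). With sex as a term 2 were called, *Jun* and *Hspa1b*, so *Fosb* was not among them. In that fit *Btg2* had -0.59 (edgeR adjusted p = 0.260) and *Egr1* -0.25 (edgeR adjusted p = 0.641). *Egr1* was called in 6 of 13 alternatives. In Nrg1-low cells *Hspa1b*, *Btg2*, *Egr1* and *Jun* were called lower too (log2 changes -1.915, -1.05, -0.96 and -0.79 by edgeR). In cardiomyocytes of the same libraries *Btg2* had 64.7 and 56.0 against 32.1 and 35.6 CPM. *Hspa1b* had 6.9 and 2.5 against 0.74 and 0.76 CPM there, and *Egr1* 156 and 122 against 84.9 and 106 CPM. *Jun* had 120 and 114.5 against 89.3 and 98.8 CPM. Controls were higher in each, with log2 changes of -0.72 for *Btg2*, -2.58 for *Hspa1b*, -0.43 for *Egr1* and -0.20 for *Jun*. None passed in cardiomyocytes, but there 0 of all 15849 tested genes passed by edgeR, so not passing says little about these genes. The part of handling of the libraries was not tested.

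No gene was called in the lists of cell cycle, oxidative phosphorylation and ribosomal genes, yet their members leaned 1 way. All 18 tested cell cycle genes outside the rule had a positive change (median 0.37), beside 51.0% of all genes. Under total count scaling 16 of them were positive, beside 4235 of all 9474 genes. The 24 listed genes summed to 6280 and 6634 CPM for controls against 6124 and 8126 CPM for *Ets1* eKO, so *Ets1* eKO replicate 1 was below both controls and replicate 2 above them. *Cdkn1c*, an inhibitor of the cycle and the most abundant of them, had 5081, 5225, 4917 and 6434 CPM, and *Cdk1*, named after its values were seen, 28.0, 26.4, 16.8 and 41.6 CPM. *Cdkn1c* made up most of each sum and had the same order of libraries, so the sums say little about the other listed genes. *Mcm2* had that order too (28.57, 35.99, 21.25 and 40.46 CPM), as did *Pcna* (38.81, 47.74, 32.43 and 59.05 CPM). The positive changes of *Mcm2*, *Pcna* and *Cdk1* thus rest on *Ets1* eKO replicate 2. In others, such as *Mcm6* (46.9, 53.62, 58.15 and 69.98 CPM), both *Ets1* eKO libraries were above both controls. The limit on *Top2a* with *Mki67* was counted in UMIs, and its part in these shallower cells was not tested. Of 78 oxidative phosphorylation genes, 75 were positive (median 0.30), and of 80 ribosomal protein genes, 79 (median 0.24), or 73 and 78 under total count scaling. *Cox4i1*, a subunit of cytochrome c oxidase, had 688 and 689 against 739 and 914 CPM (log2 change 0.32, edgeR adjusted p = 0.503). The counts of positive changes are a description and not a test.

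Of the sex-linked genes *Uty* was called lower, with 155, 91.1, 40.3 and 0 CPM, where 3 UMIs in the last library would be 3.28 CPM. With sex as a term its log2 change was -0.23 (edgeR adjusted p = 0.798), and it also missed with no limit on *Dlk1* (edgeR adjusted p = 0.0896) and by DESeq2 (adjusted p = 1.00). *Xist* had 0, 455, 527 and 1001 CPM and did not pass (edgeR adjusted p = 0.415).

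The changes were next set beside those of other endothelial cells of the same embryos. Of the 93 called genes, 91 were tested in Nrg1-low cells and 79 in coronary endothelium, in the same 4 libraries. The 53 higher genes had a median log2 change of 1.37 in the members, 1.11 in Nrg1-low cells and 0.94 in coronary endothelium. For the 40 lower genes these medians were -1.34, -0.93 and -0.42. The genes were chosen in the members, which makes the members' own medians larger, so these values are a description. By themselves, Nrg1-low cells, at the members' depth and nearly their cell numbers, had 176 called genes, against 93 in the members. Coronary endothelium, with other depths and cell numbers, had 66.

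Whether the *Ets1* eKO effect differed between Nrg1-rich and Nrg1-low cells was tested directly. Of 9934 genes, 0 (0.0%) passed by edgeR, with 429 at an unadjusted p under 0.05, and DESeq2 also called 0. Without control replicate 1 the number was 20, without control replicate 2 it was 11, and without *Ets1* eKO replicates 1 and 2 it was 1 and 2. The gene with the smallest p among named genes was *Hs6st3*, a heparan sulfate sulfotransferase, with 11.3, 24.2, 25.7 and 9.84 CPM in members and 12.2, 22.9, 96.9 and 26.1 CPM in Nrg1-low cells. The last values were high in *Ets1* eKO replicate 1 alone, and *Hs6st3* passed in 1 of 8 alternatives. *Tagln*, of the smooth muscle list, had 9.70, 14.0, 4.47 and 8.75 CPM in members. In Nrg1-low cells it had 9.31, 9.62, 16.3 and 39.1 CPM (difference -2.35), and it also passed in 1 of 8. *Vcam1*, an adhesion molecule, had 43.1, 26.4, 67.1 and 76.5 CPM in members and 38.4, 34, 21.8 and 36.9 CPM in Nrg1-low cells (difference 1.32), and it passed without control replicate 1 (1.65, edgeR adjusted p = 0.0421). *Hbb-y*, embryonic globin, differed by -3.85 and stood at 2009 CPM in Nrg1-low cells of *Ets1* eKO replicate 2 against 25.0 to 46.8 CPM in the other 3. It passed when any of the other 3 was left out (edgeR adjusted p = 2.34e-07, 3.72e-25 and 8.46e-05 without control replicates 1 and 2 and *Ets1* eKO replicate 1).

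Against coronary endothelium, 32 of 10523 genes (0.304%) differed in their *Ets1* eKO effect by edgeR. Leaving out control replicate 1 gave 22 and control replicate 2 gave 8, while leaving out *Ets1* eKO replicate 1 gave 70 and replicate 2 gave 73. *Apoe*, which encodes a lipid carrier, had 2483, 2315, 3048 and 2671 CPM in members and 115, 101, 320 and 301 CPM in coronary endothelium. *Col23a1*, a membrane collagen, had 1005, 1327, 1084 and 1054 CPM in members and 8.93, 23.6, 54.5 and 59.6 CPM in coronary endothelium. In the members the log2 changes of *Apoe*, *Col23a1* and *Cdh11* were 0.31, -0.07 and -0.09 and did not pass (edgeR adjusted p = 0.454, 0.917 and 0.876), and in coronary endothelium *Apoe* and *Col23a1* were at low levels with both *Ets1* eKO libraries above both controls. The members had far higher levels of both in each library. *Npr3*, a mural gene of the rule, had 27.7, 51.1, 104 and 55.8 CPM in coronary endothelium. The part of mural RNA or mural cells among the coronary barcodes was not tested.

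Other genes differed between the groups of members more than in coronary endothelium. *Gja4* had 65.2, 85.9, 112 and 154 CPM in members and 226, 253, 167 and 192 CPM in coronary endothelium, and its effects differed by 1.25 (edgeR adjusted p = 0.00112), with both *Ets1* eKO libraries above the controls in members and below them in coronary endothelium. Its change did not pass in members (0.89, edgeR adjusted p = 0.0565) and was 0.07 in Nrg1-low cells (edgeR adjusted p = 0.928). *Ifitm3* was higher in members, with the values above, and stayed between 133 and 159 CPM in coronary endothelium (difference 1.11, edgeR adjusted p = 0.00112). Without control replicate 2 that of *Ifitm3* missed the threshold (1.1, edgeR adjusted p = 0.10). Nrg1-low cells had 194 and 179 against 335 and 371 CPM of *Ifitm3* (log2 change 0.98, edgeR adjusted p = 0.00410), so it was higher there too. *Nts* fell in members but had 343, 690, 632 and 572 CPM in coronary endothelium (difference -2.17, edgeR adjusted p = 0.00252), and it also fell in Nrg1-low cells (-1.84, edgeR adjusted p = 5.74e-06). For *Mical2*, which oxidizes actin, the members had 252, 326, 136 and 141 CPM and coronary endothelium 34.4, 50.1, 68.7 and 40.2 CPM (difference -1.41, edgeR adjusted p = 0.00353). In Nrg1-low cells *Mical2* changed by -0.33 and did not pass (edgeR adjusted p = 0.530), and neither did the difference of its effects between Nrg1-rich and Nrg1-low cells.

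What else sets these cells apart from other mural endocardium was tested by pairing, within each library, the members with depth-matched Nrg1-low cells. The classes were split on *Nrg1* alone, which was left out of the test, and genes that vary with *Nrg1* from cell to cell had to differ. The valve list summed to 915, 902, 620 and 603 CPM in Nrg1-low cells against 639, 495, 397 and 375 CPM in members. *Wnt4* had 68.1, 91.7, 114 and 84.7 against 29.65, 33.8, 38.0 and 32.8 CPM. *Fabp4* had 54.1, 21.45, 34.8 and 58.7 against 24.3, 6.61, 30.2 and 33.9 CPM. The coronary list was lower in Nrg1-low cells (713.5, 606.5, 546.4 and 593.2 against 777.8, 712.5, 709 and 694.4 CPM). The part of valve or coronary RNA was not tested. Of 9934 genes, 1343 (13.5%) passed by edgeR, 575 higher (5.79%) and 768 lower (7.73%) in Nrg1-rich cells. With total count scaling 714 were higher and 546 lower, so the balance of directions turned over with the scaling. Without control replicate 1, control replicate 2 or *Ets1* eKO replicate 2 the number was 830, 867 or 850, and DESeq2, which gave many of the genes no adjusted p, called 499. All 1343 kept their sign in the other fits in which they were tested but for 1 gene when doublet scores were used.

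Higher in Nrg1-rich cells was *Kcnd2*, a potassium channel subunit, with 89.5, 50.7, 158 and 78.7 CPM in Nrg1-rich and 21.5, 7.40, 41.4 and 29.3 CPM in Nrg1-low cells (log2 difference 1.93, standard error 0.16, edgeR adjusted p = 1.58e-08). *Lpar1*, a receptor for lysophosphatidic acid, had 29.1, 37.5, 74.9 and 49.2 against 11.1, 6.66, 19.6 and 21.7 CPM (1.65, edgeR adjusted p = 6.34e-06). *Alcam*, an adhesion molecule, had 92.2, 114, 95 and 97.3 against 37.8, 34.8, 33.7 and 17.4 CPM (1.59, edgeR adjusted p = 9.09e-08). In all of these each library had more in its Nrg1-rich cells, which naming by size required. The adhesion molecule *Cadm1* (1.77), *Enox1* (1.68), the calcium channel *Cacna1e* (1.62), the protocadherin *Pcdh11x* (1.44), *Tuft1* (1.44), *Pcp4* (1.42) and *Sned1* (1.39) were also higher. The 3 genes with the smallest p, *Fbxl7*, *Pcdh7* and *Mcc*, named after their values were seen, were abundant in both classes. *Fbxl7*, of an F-box protein, had 1889, 1772, 1925 and 1877 against 842, 816, 902 and 747 CPM.

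Lower in Nrg1-rich cells was *Igfbp3*, a binding protein of insulin-like growth factors, with 8.09, 8.08, 5.59 and 13.1 CPM against 52.4, 29.6, 19.6 and 27.2 CPM (log2 difference -2.05, standard error 0.25, edgeR adjusted p = 4.71e-06). *Nts* had 140, 101, 20.1 and 47.0 against 559, 325, 167 and 71.7 CPM (-1.90, edgeR adjusted p = 5.80e-09). *Nav3*, which binds microtubules, had 165, 268, 142 and 168 against 486, 516, 581 and 493 CPM (-1.52, edgeR adjusted p = 2.46e-09). Each library had less in its Nrg1-rich cells, which naming by size required here too. *Edil3* (-1.82), *Ccdc141* (-1.72), *Nostrin* (-1.63), the potassium channel *Kcnc2* (-1.58), the hyaluronan link protein *Hapln1* (-1.43), the phosphodiesterase *Pde10a* (-1.36) and *Cyp17a1* (-1.35) were also lower. All 20 genes named by size passed in each alternative that gave them an adjusted p.

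**Figure D5:**
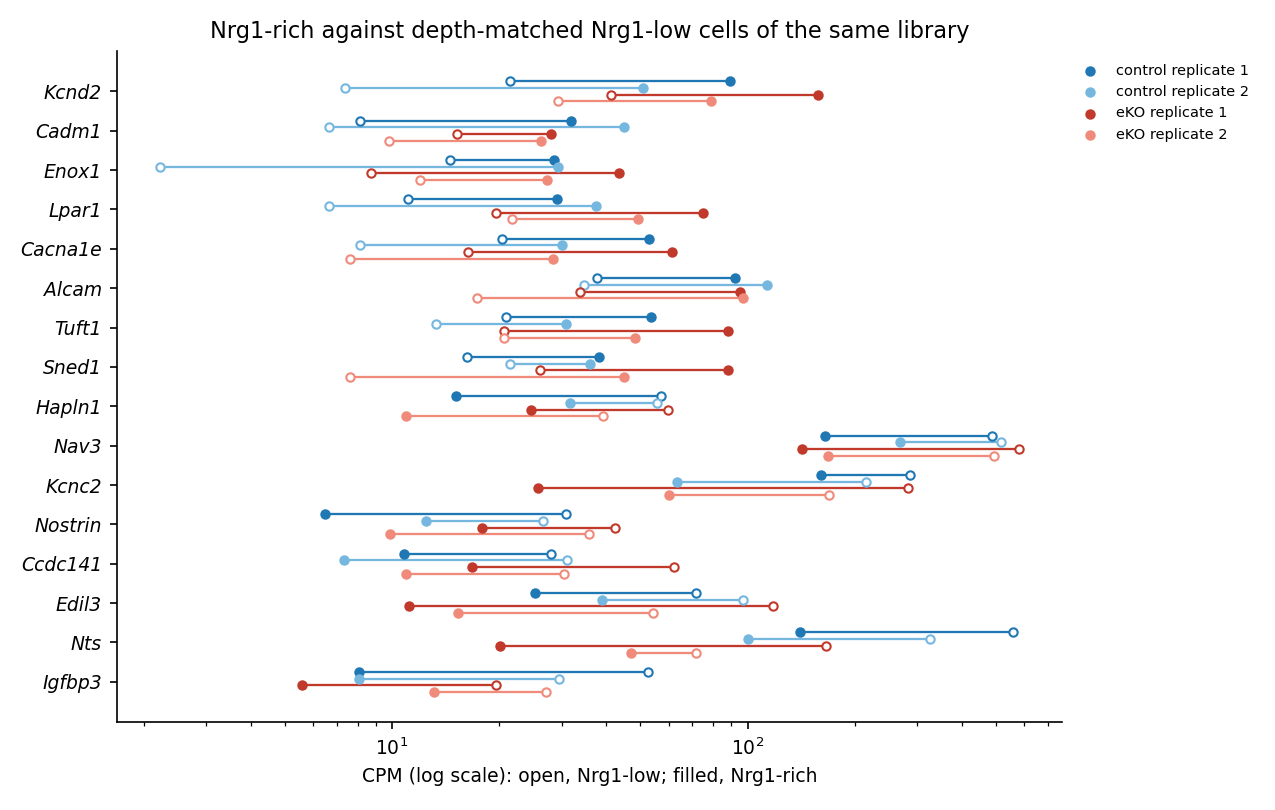
Level of 16 named genes (CPM, log scale) in Nrg1-rich (filled) and depth-matched Nrg1-low (open) mural cells, joined within each of the 4 libraries. From Kcnd2 to Sned1 the filled point lies to the right in every library, and from Hapln1 to Igfbp3 to the left. Genes had to agree in direction in all 4 libraries to be named by size.

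By lists, the list members below were named after their values were seen. Of 7 mural endocardial genes outside the rule, 4 were higher and 1 lower in Nrg1-rich cells, with a median of 0.37 beside -0.0049 over all genes, of which 5.79% were higher and 7.73% lower. The higher ones were *Bmp6*, a BMP ligand (1.28), *Vwf* (0.79), *Cdh11* (0.55) and *Cgnl1* (0.22), and *Tmem100* was lower (-0.63). Of 20 genes of BMP and TGF-beta signalling 6 were higher and 1 lower (median 0.22). Of 21 matrix genes 5 were higher, *Hmcn1* among them (0.61, edgeR adjusted p = 4.72e-07), and 1 lower. Of 13 growth factors to the myocardium, *Edn1*, the precursor of endothelin 1 (1.13), and *Ptn* (0.95) were higher and *Kitl* (-0.78) and *Wnt2* (-0.99) lower, although in *Ets1* eKO replicate 2 *Ptn* had 528 CPM in Nrg1-rich and 541 CPM in Nrg1-low cells. Of 12 flow-responsive genes *Edn1* was higher and *Klf4* (-1.05), *Klf2* (-0.68) and *Nos3* (-0.40) lower. By DESeq2 4 genes of the BMP and TGF-beta list and 2 of the matrix list were higher and 0 lower, the call of *Ptn* was lost, and *Edn1* and *Wnt2* were given no adjusted p. The protease *Bace2* was higher (0.66, edgeR adjusted p = 1.43e-06), 0 of the 24 tested Notch ligands, receptors, partners and targets were called, and *Ets1* had -0.23 (edgeR adjusted p = 0.0952).

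Oxidative phosphorylation genes were lower in 37 and higher in 0 of 78 (median -0.24), and ribosomal protein genes lower in 61 and higher in 0 of 80 (median -0.20). Under total count scaling 26 and 43 were called lower, and by DESeq2 17 and 61. The numbers fell to 21 and 18 without control replicate 1, to 13 and 19 without control replicate 2 and to 15 and 23 without *Ets1* eKO replicate 2. The immune markers *C1qa* (3.60) and *Tyrobp* (2.09), which mark macrophages, were higher in Nrg1-rich cells, from 46 *C1qa* UMIs in control replicate 2 and 1 to 9 in each other library. *Tyrobp* had 1.12 and 1.09 CPM in the Nrg1-rich and Nrg1-low cells of *Ets1* eKO replicate 1. *C1qa* had 0.539 and 0.582 CPM in those of control replicate 1, so it was not higher there. DESeq2 gave both genes no adjusted p. The part of macrophage RNA was not tested.

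The *Ets1* eKO comparison and the comparison with Nrg1-low cells use the same members, so their values are set side by side for named genes only. *Pcp4* had log2 values of 3.63 for *Ets1* eKO and 1.42 for Nrg1-rich cells, *Cdh4* -2.55 and -0.75, and *Nts* -1.78 and -1.90. *Cyp17a1* had 2.73 and -1.35, *Ptgis* 2.18 and -0.79, and *Clca3a1* -1.45 and 0.57. *Slc26a10* had -1.69 and -1.24, *Pde8a* -1.55 and -0.92, and *Gimap4* -1.50 and -0.53. *Kdr* had -0.85 and -0.29, *Mgp* 1.00 and 0.45, and *Sparcl1* 1.76 and -1.05. These were all the genes chosen by the naming rule that passed both tests by edgeR.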

How the data were processed

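The authors deposited UMI counts per gene and cell barcode for 4 libraries (10x Genomics 3' chemistry), made with Cell Ranger against mm10 per the labels. From these counts, barcodes were selected by the stated limits and kept whether or not their doublet score was high. The sum of counts over each class of cells in a library was tested in edgeR 4.0.16 (quasi-likelihood test, TMM scaling, low-count filter, Benjamini-Hochberg adjustment, threshold 0.05) under R 4.3.3. DESeq2 1.42.0, total count scaling, no filter, a replicate block, sex as a term, other membership limits and leaving out each library were the alternatives. Scripts were tested on simulated data. Levels are CPM of these sums. The members and the 33 gene lists were chosen with earlier results of these data known. Named genes were the rule's genes, *Ets1*, *Dll4*, *Notch1*, *Rbpj*, *Hmcn1*, *Slit2* and *Col18a1*, up to 4 per list by smallest p (or the 3 most abundant where none passed), the 10 largest called changes in each direction of the *Ets1* eKO and the Nrg1-low comparisons at a mean of at least 20 CPM with libraries agreeing in direction, up to 5 genes per test of a difference of effects, and sex-linked genes. Intervals cover counting error only.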

Additional observations from a re-analysis of the deposited data

Results flagged for a closer look

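In 5 genes the *Ets1* eKO effect differed between Nrg1-rich mural endocardium and coronary endothelium by edgeR's test of the class by condition term. The difference in log2 effect was -1.2656 for *Apoe* (edgeR adjusted p = 2.08e-06), -2.0947 for *Col23a1* (edgeR adjusted p = 2.20e-05) and -1.0964 for *Cdh11* (edgeR adjusted p = 0.00112). It was 1.2516 for *Gja4* and 1.1124 for *Ifitm3* (edgeR adjusted p = 0.00112 for each). Without control replicate 2 *Cdh11* had -1.08 (edgeR adjusted p = 0.0564) and *Ifitm3* 1.1 (edgeR adjusted p = 0.10). These were the genes with the smallest p among 32 that passed.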

How the results depend on the processing

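Of 441 values of 34 called genes under the alternatives to the *Ets1* eKO comparison, 377 stayed past the threshold, 64 did not and 0 changed sign, and 13 genes passed throughout. The number of genes changed in *Ets1* eKO was 41 by DESeq2, 293 with no filter and 109 to 179 with a library left out. With the replicate number as a block it was 264, but same-numbered libraries share only a number (r = 0.0149 over 9474 genes). The number differing from Nrg1-low cells was 499 by DESeq2 and 830 to 1038 with a library left out. For the effect differing from Nrg1-low cells it was 13 with no filter and 1 to 20 with a library left out, and from coronary endothelium 14 by DESeq2, 107 with no filter and 8 to 73. The difference in cells with an *Ets1* UMI was -15.3 points at 2000 UMIs, -36.4 with all UMIs and -27.9 to -18.6 with a library left out. *Col18a1* changed sign with sex as a term (0.0414) and was -0.2252 to 0.0825 with a library left out, *Xist* (-0.16) and *Ddx3y* (0.20) with sex as a term, and *Hbb-y* (0.38) with Nrg1-low cells not matched in depth. The cause was not tested. DESeq2 gave no adjusted p for some genes, and these were left out of the counts. The *Ets1* eKO sums held the fewest UMIs, and 3 UMIs there are 3.355 and 3.28 CPM against 1.617 and 2.204 CPM in controls, which limits what low genes can show.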
